A study of Rattus norvegicus with 6 samples.

Results

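Circular RNAs (circRNAs) from one stretch of rat chromosome 3 are described here, measured in the pineal gland, the gland that makes melatonin. The stretch runs from 104.7 to 105.05 Mb, and every circRNA lying wholly inside it was taken, together with every circRNA given to the host gene ENSRNOG00000031760. This gave 6 circRNAs of the 2228 in the main tables, 5 inside the stretch and 1 of the same gene that ends 35171 bases past it. The stretch was chosen by measured values with results already known: it was selected on the abundance of its intergenic circRNA and on the difference of that circRNA between the groups. All levels and differences of that circRNA are therefore descriptions without a test.

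The samples were total RNA of whole pineal glands from 6 rats aged 8 weeks, 1 library per rat, with no genotype, strain or drug named in the labels. The design sets day against night, but the labels conflict on which glands were which. Titles and time tags place rats C01, C02 and C03 at night (4:00) and rats C04, C05 and C06 in daytime (16:00). The treatment protocol instead has C01, C02 and C03 killed in sunlight between 16:00 and 17:00 and the other three in darkness under red light between 4:00 and 5:00. The groups (n = 3 each) are named by rat number, every difference is the mean of C01-C03 minus that of C04-C06 (or its ratio), and none is assigned to day or night. In whole glands a change in the makeup of cells and a change in RNA per cell cannot be told apart.

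A circRNA arises by back-splicing, in which the spliceosome joins the end of a segment back to its own beginning and closes it into a ring. It is recognised by reads across that back-splice junction. Reads that cross the same ends without the back-splice are called linear reads here. They can come from ordinary linear transcripts or unspliced RNA of the locus and, where an end lies inside a longer circRNA, from that circRNA. Circular RNAs have no free ends, resist exonucleases and are known to be abundant in neural tissue. The pineal gland consists mainly of pinealocytes, cells related to photoreceptors, and its RNA content changes strongly over the day.

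Libraries held 795 to 986 circRNAs and 15506 to 22265 back-splice reads in the main tables. A second caller gave 2843 to 4803 candidates per library. Every circRNA listed in the main tables had at least 2 back-splice reads and a circular share of at least 9.09%, that is, at most 20 linear reads per back-splice read. An unlisted circRNA is therefore not a measured 0.

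The 6 circRNAs lie on the plus strand and form 3 units. The first is the intergenic circRNA at chr3:104816866-104818862, which spans 1997 bases and overlaps no gene in the files' annotation. The second is a family of 4, all annotated as intronic to ENSRNOG00000031760, that begins 67559 bases further on. These 4 combine 2 starts with 2 ends: chr3:104886422-104902580, chr3:104886422-104936645, chr3:104886425-104902580 and chr3:104886425-104936645. Both starts are only 3 bases apart, whereas the ends are 34065 bases apart. They are called the first-start and second-start circRNAs of 16 kb and 50 kb below, after the genomic distance they span. The third unit is exonic, at chr3:105034310-105085171, spans 50862 bases and begins 97664 bases past the end of the family.

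**Figure D1:**
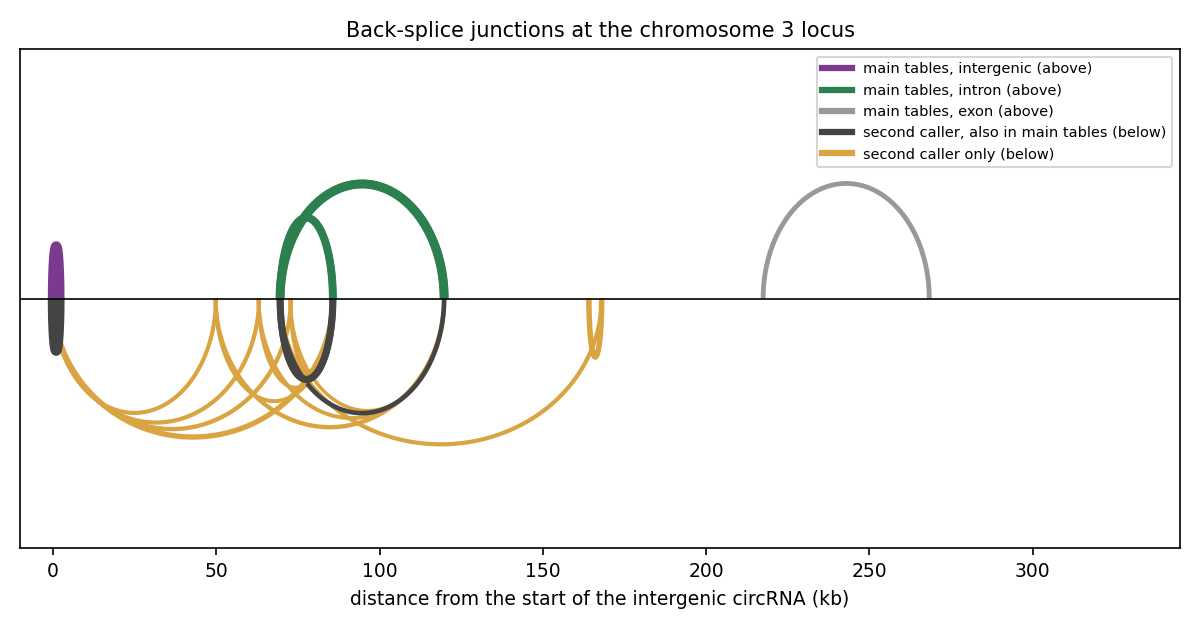
Back-splice junctions drawn as arcs between their ends, against the distance in kb from the start of the intergenic circRNA. Arcs above the line are the 6 circRNAs of the main tables, where the paired starts 3 bases apart coincide at this scale. Arcs below are candidates of the second caller found in at least 2 libraries, and thicker lines mean more reads over the 6 libraries (log scale). The second caller joins the start of the intergenic circRNA to several ends further downstream.

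Starts this close are rare in the main tables. Among all 2228 circRNAs there only 4 pairs shared an end and had starts 1 to 10 bases apart, all 4 pairs exactly 3 bases apart, and 2 of the 4 belong to this family. These 2 are the same starts, paired at each end. The second caller also listed a start at 104816870 for the end of the intergenic circRNA, with 2 reads each in C03, C04 and C05. Alternative acceptor sites a few bases apart are a common form of splicing variation in mammals. No read name was assigned to more than 1 of the 6 circRNAs in any library, so the paired junctions were counted from separate reads. Whether each read was placed at the right one of the paired starts was not tested. Nothing else lay near: the closest circRNAs outside were exonic chr3:104375097-104394775, listed in C04 with 5 reads, and intergenic chr3:106177227-106205774, listed in C02 and C03 with 5 and 2 reads.

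The intergenic circRNA held most of the reads of the locus and ranked among the top 3 of every library. From C01 to C06 it had 939, 602, 688, 497, 555 and 488 back-splice reads. It was the circRNA with most reads in each of C01, C02 and C03, and ranked 3, 3 and 2 in C04, C05 and C06. On the scale of normalised CPM (back-splice reads scaled to a fixed library total) its levels were 51330, 39960 and 41712 in C01-C03 and 27301, 28697 and 28775 in C04-C06, so the groups did not overlap. The same separation, higher in C01-C03, was seen in 5.96% of the 772 circRNAs with 2 or more reads in 3 or more libraries. The mean was 1.57 times higher in C01-C03, and C01 was the highest of the 6. The authors' deposited TPM values, which come from the same reads and are no independent support, were 29544, 24917 and 25049 against 14830, 15276 and 15859.

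Its weight within the locus differed as well. The 5 circRNAs inside the stretch took 6.56% ± 0.310 of a library's back-splice reads in C01-C03 and 4.65% ± 0.029 in C04-C06 (SD, n = 3 each). Of those reads the intergenic circRNA made up 62.5% ± 2.38 and 53.1% ± 1.07. The circRNAs of ENSRNOG00000031760 together took 2.46% ± 0.133 and 2.22% ± 0.091 of the library. In C01 and C02 these sums hold no reads of the second-start 16-kb circRNA, which was unlisted there. In C05 the sum for the gene includes the exonic circRNA. Most of the difference in the locus total thus lay in the intergenic circRNA, a description of the values by which the locus was chosen.

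None of the 3 intronic circRNAs listed in every library passed the test of back-splice reads. The first-start 50-kb circRNA, its most abundant member, had 259, 190 and 214 back-splice reads in C01-C03 and 217, 214 and 182 in C04-C06. Its normalised level was 13248 ± 809 CPM against 11239 ± 613 (SD, n = 3 each), and the groups did not overlap, as was so for 5.96% of the 772 tested circRNAs in that direction. The log2 difference was 0.24 (SE 0.08) and did not pass (edgeR quasi-likelihood test, adjusted p 0.24).

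The second-start 50-kb circRNA had 139, 101 and 123 reads against 106, 137 and 104, and its groups overlapped. The log2 difference was 0.19 (SE 0.11, edgeR adjusted p 0.89). The first-start 16-kb circRNA had 108, 76 and 54 reads against 77, 73 and 73. Its C01-C03 libraries enclosed the range of the others, with C01 highest and C03 lowest (log2 difference 0.21, SE 0.22, edgeR adjusted p 1). Across all 772 circRNAs 1.55% passed this test (0.389% higher and 1.17% lower in C01-C03), and of the 3 family members listed in every library none did. The first-start 50-kb circRNA alone had an unadjusted edgeR p under 0.05 (0.021). DESeq2, which called 3.63% of the 772, called none of the 3. The median log2 difference of all 772 was -0.10. Both fits of the 772 took unlisted entries as 0. Among the 273 circRNAs listed in all 6 libraries, 2.56% passed in edgeR, 5 higher and 2 lower in C01-C03. Their median log2 difference was 0.033, and none of the 3 family members passed there (edgeR adjusted p 0.19 to 0.48).

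**Figure D2:**
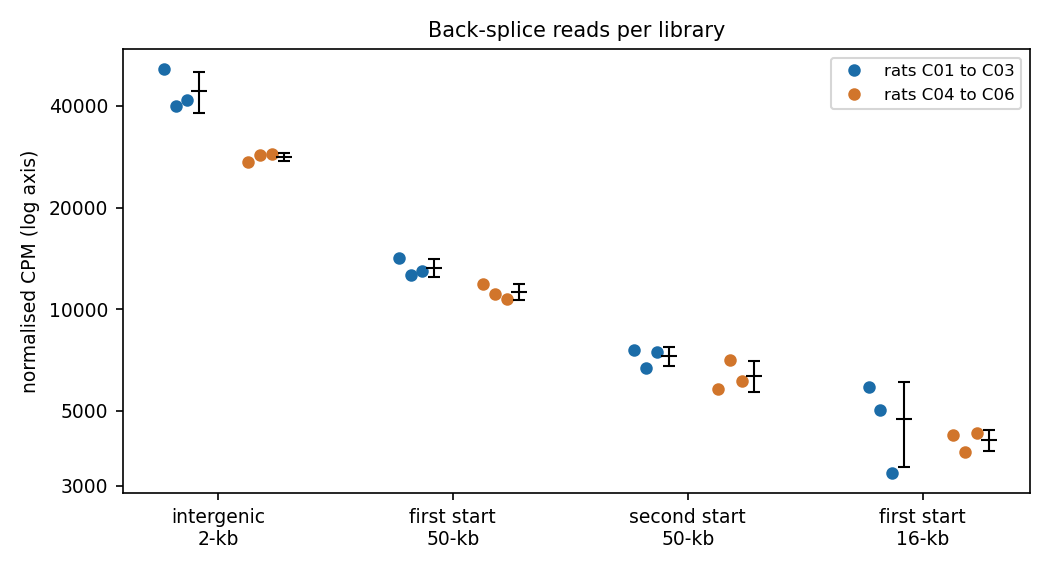
Normalised back-splice CPM (log axis) of the 4 circRNAs listed in all 6 libraries, 1 point per rat, with the mean and SD of each group of 3 beside the points. The intergenic circRNA lies at 39960 or higher in C01-C03 and at 28775 or lower in C04-C06, while the groups of the first-start 16-kb and second-start 50-kb circRNAs overlap.

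The choice of start and of end within the family did not separate the groups. At the far end, the first start took 64.3% ± 2.10 of the reads (SD, n = 6), between 61.0% in C05 (95% Wilson interval 55.8 to 65.9) and 67.2% in C04 (61.9 to 72.1). The group means were 64.6% ± 0.979 and 63.9% ± 3.12 (n = 3 each, SD), a difference of 0.693 points with p = 0.8 in an exact two-sided permutation test. Among reads from the first start, 73.6% ± 3.43 ended at the far end (SD, n = 6), with group means of 74.0% ± 5.13 and 73.3% ± 1.67 (exact two-sided permutation p = 0.9). C03 had the largest share, 79.9% (Wilson interval 74.6 to 84.2). Intervals here cover counting error only. With 3 rats against 3 the smallest exact p is 0.1.

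At the near end the first start's share was close between the callers in C03, C05 and C06. In C04 it was higher by the second caller (70.5%, Wilson interval 55.8 to 81.8) than in the main tables (56.2%, 47.8 to 64.2). These intervals overlapped. The main tables listed both 16-kb circRNAs in 4 libraries, where the first start took 46.2%, 56.2%, 53.7% and 56.6% of the reads in C03, C04, C05 and C06. By the second caller, which listed both in every library, it took 74.7%, 75.9% and 46.8% in C01-C03 and 70.5%, 50.7% and 57.4% in C04-C06, a mean of 62.7% ± 12.7 (SD, n = 6). That mean includes the 2 libraries missing from the main tables, C01 and C02, which had the highest shares by the second caller. The near and far ends were not compared by a test, since a library may drop out for too few second-start reads. Whether the second-start 16-kb circRNA was unlisted in C01 and C02 for that reason was not tested.

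That circRNA shows what an unlisted entry means. The main tables gave the second-start 16-kb circRNA 63, 60, 63 and 56 reads in C03, C04, C05 and C06 and nothing in C01 and C02. The second caller listed it in all 6, with 19, 13 and 33 reads in C01-C03 and 13, 35 and 23 in C04-C06, and its groups overlapped there (log2 difference -0.18, SE 0.36, edgeR adjusted p 1). Linear reads at its ends equalled those of the first-start 16-kb circRNA to within 6 reads wherever both were listed. With the 1103 and 897 linear reads of that circRNA in C01 and C02, at least 56 and 45 back-splice reads would reach the lowest circular share in the tables. In C03-C06 that number was 28 to 44. C02 and C04 had 13 reads each by the second caller, yet of these the main tables listed it in C04 only. No difference from the main tables is given for this circRNA, because a fit would take its unlisted entries as 0.

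Linear reads at the ends of the family were higher in C01-C03. The first-start 50-kb circRNA had 1025, 791 and 789 linear reads in C01-C03 and 416, 542 and 424 in C04-C06. The first-start 16-kb circRNA had 1103, 897 and 861 against 602, 615 and 548. For both, all libraries of C01-C03 stood above all of C04-C06, also after normalisation, as was so for 24.9% of the 273 circRNAs compared. The normalised level at the 50-kb ends was 14820 ± 790 CPM of linear reads against 7844 ± 751, and at the 16-kb ends it was 16310 ± 1001 against 10054 ± 335 (SD, n = 3 each). The near end lies inside the 50-kb circRNAs, so linear reads of the 16-kb circRNAs may include reads of those circles. How many do was not tested, and the circular share of the 16-kb circRNAs has the same limit.

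The log2 difference of linear reads was 0.92 (SE 0.07) for the first-start 50-kb circRNA, 0.91 (SE 0.07) for the second-start 50-kb circRNA and 0.70 (SE 0.06) for the first-start 16-kb circRNA. All 3 passed (edgeR adjusted p 1.8e-25, 2.6e-25 and 5.6e-20), and so did 31.9% of the 273 circRNAs listed in every library, 18.7% higher and 13.2% lower in C01-C03. The 3 do not count as separate results, since they share a start or an end and so share linear reads: those of both 50-kb circRNAs differed by at most 6 reads in any library. All 3 passed in each of the 10 alternatives, with adjusted p up to 0.0030. The very small p-values rest on a spread pooled over all circRNAs, with 147.8 prior against 4 residual degrees of freedom. The median log2 difference over the 273 was -0.00.

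The intergenic circRNA, given without a test, had 1977, 1371 and 1393 linear reads in C01-C03 and 828, 939 and 839 in C04-C06. Its normalised linear level was 26841 ± 2643 against 14837 ± 417 CPM (SD, n = 3 each), a ratio of 1.81, beside 1.57 for its back-splice reads. For the first-start 50-kb circRNA the ratios of the group means were 1.89 for linear and 1.18 for back-splice reads. Linear reads were thus higher in C01-C03 at the intergenic circRNA and at the intronic family, where the ratio was 1.62 at the first-start 16-kb circRNA. The back-splice ratio was larger at the intergenic circRNA than at the 3 intronic circRNAs listed in every library (1.14 to 1.18). The locus was chosen for the back-splice difference of the intergenic circRNA, so this contrast is a description only.

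**Figure D3:**
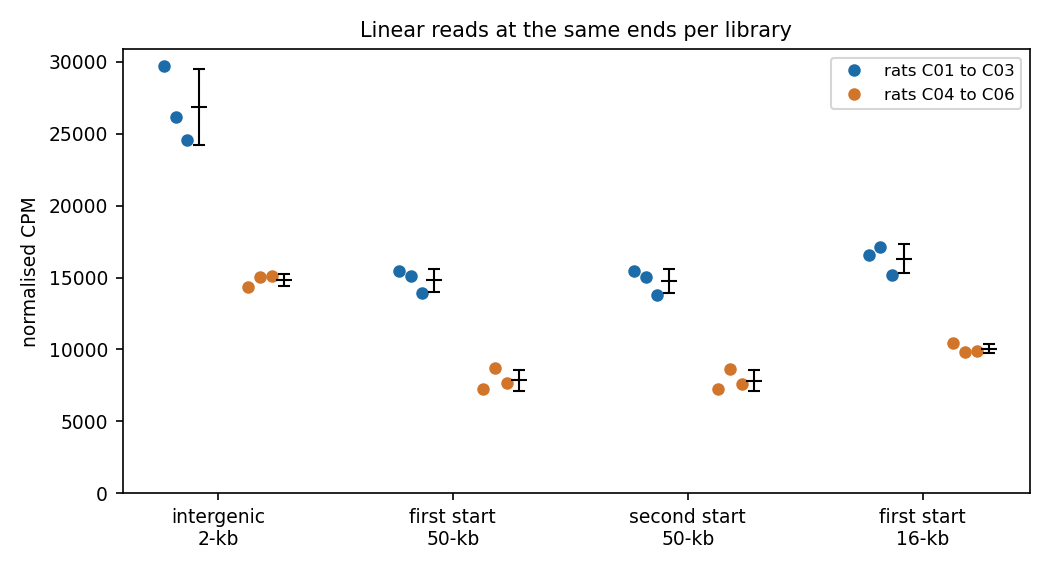
Normalised CPM of linear reads across the ends of the 4 circRNAs listed in all 6 libraries, 1 point per rat with the mean and SD of each group of 3. At all 4 every library of C01-C03 lies above every library of C04-C06, and the panels of the 50-kb circRNAs are nearly identical because they share linear reads.

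The circular share weighs back-splice reads, counted double because each closes both ends, against linear reads at the same ends. It was lower in C01-C03 at all 4 circRNAs listed in every library. It was 48.4% ± 1.47 against 54.2% ± 0.40 at the intergenic circRNA, which made it the most circular of the locus. At the first-start 50-kb circRNA it was 33.8% ± 1.36 against 47.1% ± 3.59, at the second-start 50-kb circRNA 21.9% ± 1.82 against 33.5% ± 0.416, and at the first-start 16-kb circRNA 14.0% ± 2.69 against 20.2% ± 0.917 (SD, n = 3 each). In none did the groups overlap, and 22% of the 273 circRNAs had such separated groups in this direction. The median share of all other circRNAs was 17.2% to 17.6% in the libraries of C01-C03 and 18.0% to 18.2% in C04-C06.

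None of the 3 intronic circRNAs passed the test of the log2 ratio of back-splice to linear reads (limma, 2.2% of 273 passed, 1.47% lower in C01-C03). The log2 differences were -0.84 (SE 0.23) and -0.81 (SE 0.22) for the second-start and first-start 50-kb circRNAs, both with a limma adjusted p of 0.097. For the first-start 16-kb circRNA it was -0.65 (SE 0.24, limma adjusted p 0.18). Unadjusted, the 3 limma p-values were 0.0059, 0.0061 and 0.026. The median log2 difference of all 273 was -0.20, and the 50-kb circRNAs stood at its percentiles 11 and 11.4. The intergenic circRNA, given without a test, was at -0.33 and percentile 38.5.

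**Figure D4:**
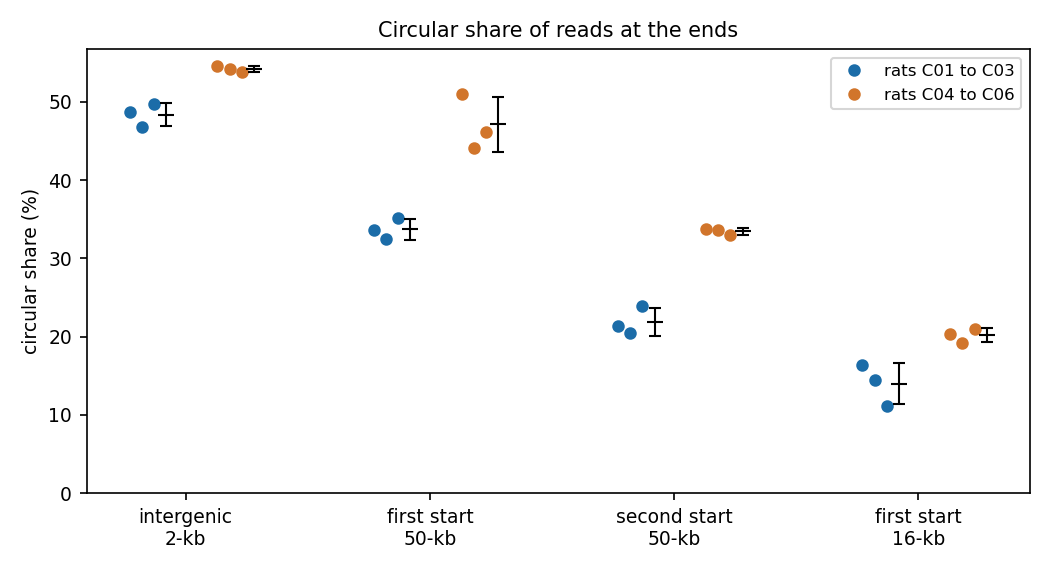
Circular share in percent of the 4 circRNAs listed in all 6 libraries, 1 point per rat with the mean and SD of each group of 3. At each circRNA the C01-C03 points lie below the C04-C06 points, with the widest gaps at the 50-kb circRNAs.

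Both callers saw the near end and the intergenic circRNA but parted on the far end. Over the 6 libraries the intergenic circRNA had 3769 reads in the main tables and 4023 by the second caller, and the first-start 16-kb circRNA had 461 against 224. The second-start 16-kb circRNA had 242 against 104 over the 4 libraries in which the main tables listed it. At the far end the numbers over 6 libraries were 1276 against 23 for the first-start 50-kb circRNA and 710 against none for the second-start one. The second caller listed the former with 4, 4, 11 and 4 reads in C01, C02, C03 and C05 and not at all in C04 and C06. Among other circRNAs with at least 50 reads in a main table, the median ratio of the second caller's reads to the main reads was 0.368 to 0.678 across libraries, and in 17.1% to 26.7% of them the ratio was under 0.1. Ratios as low as at the far end thus occurred elsewhere, while the near end, reached from the same starts, lay well above them.

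**Figure D5:**
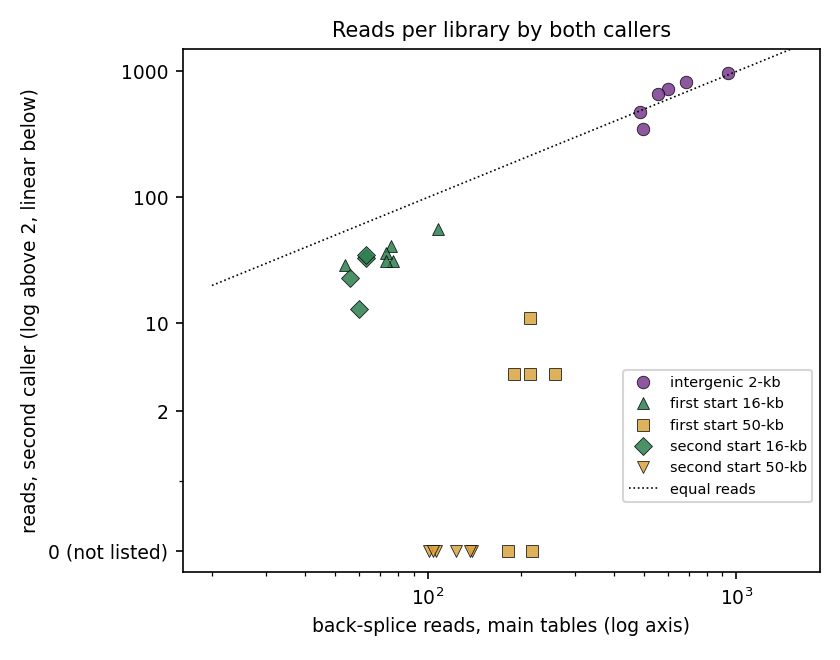
Reads per library by the second caller (log axis above 2, linear below) against back-splice reads in the main tables (log axis), 1 point per library in which the main tables listed the circRNA; the dotted line marks equal reads. The intergenic points lie near the line, the 16-kb points somewhat below it, and the 50-kb points at 11 reads or fewer.

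The alignments behind the junctions also differed by end. The main tables count the distinct alignment patterns of back-splice reads by which side of the match is clipped. Patterns clipped on both sides made up 52.6% ± 1.27 of those of the first-start 50-kb circRNA and 53.8% ± 2.17 of the second-start one (SD, n = 6 each). They made up 29.4% ± 1.86 at the first-start 16-kb circRNA and 1.89% ± 0.919 at the intergenic circRNA (SD, n = 6 each). In other circRNAs with at least 50 reads the median was 14.5% to 20.1% per library. Whether this has a part in the gap between the callers was not tested.

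Reads of the intergenic circRNA were repetitive. Of its reads by the second caller 27.6% ± 3.74 were distinct (SD, n = 6), with 24.6% ± 1.72 in C01-C03 and 30.6% ± 2.17 in C04-C06 (SD, n = 3 each). The median over candidates with at least 50 reads was 48.7% to 53.1% per library. That median was not matched for read number, and the intergenic circRNA ranked 1 or 2 by the second caller's reads in every library. Its own distinct share was 22.7% in C01, with most reads (980), and 31.7% in C04, with fewest (347). An effect of read number on these shares was not tested. By distinct reads it had 222, 185 and 213 in C01-C03 and 110, 188 and 152 in C04-C06 before scaling. As a share of all distinct reads of the library these were 1.46%, 1.26% and 1.37% against 1.11%, 1.01% and 1.19%. They come from the same libraries in which the circRNA was chosen for its difference and are no independent support. The part of repeated reads in the difference of this circRNA was not tested.

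The second caller showed a wider web of junctions. It placed 46 candidates inside the stretch, 4 shared with the main tables and 42 of its own, of which 28 were seen in 1 library only. Its intergenic circRNA held 85.4% of the 4712 reads. Of the 42, 23 shared a start or end with a circRNA of the main tables, and these 23 had 214 of the 306 reads. They included 13 of the 14 candidates seen in at least 2 libraries but 10 of the 28 seen in 1. All 6 candidates on the minus strand lacked such an end, which says little because the circRNAs of the main tables here all lie on the plus strand. Every candidate in these lists, genome-wide, has the canonical splice signal, so that signal does not set any apart.

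The start of the intergenic circRNA was the most connected point and also the one with most reads (4126 by the second caller). An effect of read number on its connections was not tested. Besides its own end, the second caller joined position 104816866 to 8 other ends, with 23, 11, 30, 16, 15 and 8 reads in all from C01 to C06. Of these 8 junctions, 5 were seen in at least 2 libraries. The strongest of the 8 reached the near end of the intronic family, chr3:104816866-104902580, with 12, 5 and 13 reads in C01-C03 and 3, 6 and 5 in C04-C06. This junction spans 85715 bases and joins the part annotated as intergenic to the part annotated as intron of ENSRNOG00000031760. It was seen in all 6 libraries and its groups overlapped (log2 difference 0.999, SE 0.74, edgeR adjusted p 1).

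Another such junction, chr3:104816866-104889732, was seen in every library but C02 with 2 to 6 reads (log2 difference -0.24, SE 1.49, edgeR adjusted p 1). That fit took the unlisted entry of C02 as 0, and without C02 the log2 difference was 0.32, so its direction is not read. The near end itself was joined to 7 starts and the far end to 5, including both starts of the family for the near end. The junction chr3:104866670-104936645 had 4, 2 and 4 reads in C01-C03 and 2, 2 and 3 in C04-C06 (log2 difference 0.37, SE 1.43, edgeR adjusted p 1). With so few reads, these junctions can be placed on the map, but a difference between the groups would not be detectable.

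The strongest candidate of the second caller alone lay apart from the others, at chr3:104980955-104984877, 3923 bases long. It had 13, 12 and 3 reads in C01-C03 and 8, 9 and 6 in C04-C06, again with overlapping groups (log2 difference 0.19, SE 0.66, edgeR adjusted p 1). Its end, 104984877, was also joined to 3 other starts, among them both starts of the intronic family. Of all 2208 candidates tested, 2 passed (0.0906%), both higher in C01-C03, and none of the candidates seen by the second caller alone in this stretch was among them.

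The exonic circRNA of ENSRNOG00000031760 was the weakest of the 6. It was listed in C05 alone, with 27 back-splice reads, 335 linear reads and a circular share of 13.9%, and the second caller did not list it. It entered no test. The number of circRNAs listed inside the stretch, 4, 4 and 5 in C01-C03 and 5 in each of C04-C06, differed only by the second-start 16-kb circRNA (exact two-sided permutation p = 0.4).

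The circRNAs elsewhere whose levels were most like those of the intergenic circRNA across the 6 rats are given as a description. The levels they were matched to are those by which the locus was chosen. Likeness was measured as the root mean square difference of log2 normalised CPM, each circRNA centred on its own mean, over the 6 libraries. The closest of 269 was chrX:119208336-119223573 (0.074), followed by chr4:184195264-184224636 (0.099), chr14:87328008-87357732 (0.143), chrX:119208336-119213196 (0.154) and chr13:74512346-74520636 (0.183). The median over the 269 was 0.494. The first-start 50-kb, second-start 50-kb and first-start 16-kb circRNAs stood at 0.222, 0.247 and 0.324, at ranks 11, 15 and 33, all below that median. The closest had 78, 46 and 50 reads in C01-C03 and 41, 44 and 36 in C04-C06. The 269 were not matched for read number, and an effect of read number on these distances and ranks was not tested.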

How the data were processed

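The authors deposited, per the file headers, 1 table per library with counts of back-splice (junction) and linear (non-junction) reads, the circular fraction and patterns of clipping (CIRI column format), and 1 candidate list with read counts and distinct-read counts (find_circ column format, the second caller). The fraction in the deposited tables is 2J/(2J + L), with J back-splice and L linear reads (to within 0.0005). A deposited table of 1413 circRNAs has equal library sums and was read as TPM. No label or header used here gives caller versions or settings. DESeq and a mouse build, mm9, appear in the submitters' processing notes, yet the gene IDs are those of rat in Ensembl. Coordinates, of uncertain build, follow the files, counted from 1 (second-caller starts raised by 1). ENSRNOG00000031760 matched no symbol in the RefSeq table.

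Groups follow rat numbers. Tissue markers were not checked, since the tables used here hold circRNAs only. The members and tests were chosen with earlier results of these data known. Fits ran over whole tables, and calls are at an adjusted p (Benjamini-Hochberg) under 0.05: edgeR 4.0.16 (quasi-likelihood, TMM, R 4.3.3) on back-splice reads (circRNAs with 2 or more reads in 3 or more libraries), on linear reads of the 273 circRNAs listed in all 6, and on second-caller reads; and limma 3.58.1 with a trend for log2((J + 0.5)/(L + 0.5)). SE is the log2 difference over the square root of F. Single values per library had exact permutation tests (scipy 1.17.1). The fits were tested on simulated data. No 2 libraries were duplicates (lowest chi-square per degree of freedom 1.39). Alternatives were DESeq2 1.42.0, other normalizations, filters, pseudocounts and windows, the second caller, TPM (pseudocount 0.760) and leaving out each rat. By the rule for names, every circRNA of the stretch is described, with the second caller's own candidates of most reads (a tie gave 4) and the 5 circRNAs most like the intergenic one.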

Additional observations from a re-analysis of the deposited data

How the results depend on the processing

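Of the 772 circRNAs tested for back-splice reads, 12 passed; 41 passed with no filter, 7 among circRNAs listed in all 6 libraries, 28 with DESeq2 and 2 with the second caller's counts, and 0 to 14 when 1 rat was left out. The 0 came without C04, C05 or C06 (edgeR, with 43, 42 and 46 at an unadjusted p under 0.05). Linear reads gave 87 calls, 40 when circRNAs listed in at least 5 libraries were tested and 70 to 85 without 1 rat. The circular share gave 6 calls, 10 with a pseudocount of 1 and 3 to 5 without 1 rat. The second caller gave 2 calls, 4 among candidates listed in all 6 libraries and 0 to 2 without 1 rat (edgeR, 0 without C03, C04, C05 or C06, with 73, 67, 85 and 86 at an unadjusted p under 0.05). The stretch's share of reads differed by 1.92 percentage points, by 1.35 with the second caller and by 1.77 to 2.08 without 1 rat. The difference in the number listed there was -0.67, and -1 to -0.50 without 1 rat.

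Among the circRNAs of the locus, no linear-read call was lost in 10 alternatives and no circular-share call was gained in 8. The 3 intronic circRNAs listed in every library stayed uncalled for back-splice reads in all alternatives that gave a value, but their log2 differences moved. The first-start 16-kb circRNA went from 0.21 to 0.040 without C01 and 0.43 without C03, the second-start 50-kb circRNA from 0.19 to 0.32 without C05, and the first-start 50-kb circRNA from 0.24 to 2.20 with the second caller and 5.25 with TPM, both of which hold it at 0 or unlisted in C04 and C06. For the second-start 16-kb circRNA the fits of the main tables take unlisted entries as 0 and are not read; its second-caller difference ranged from -0.58 to 0.062 without 1 rat, above 0 without C02. Also by the second caller, chr3:104980955-104984877 ranged from -0.069 to 0.63, below 0 without C01 (-0.069) or C02 (-0.060), and chr3:104816866-104889732 from -1.55 to 0.32, above 0 without C02; the causes were not tested. No paired analysis was possible because the groups share no replicate numbers. Read numbers limit the candidates seen by the second caller alone, which had 51 reads at most over the 6 libraries.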
